A study of Danio rerio with 12 samples.

Results

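The cytosolic ribosome of zebrafish larvae was followed through the messages of its protein genes. The members are the Ensembl identifiers to which the supplementary tables of the study give a symbol that starts with rpl or rps followed by a digit or a p, without the rps6k kinases. This rule found 44 genes of 31953, of which 28 encode proteins of the large subunit and 16 proteins of the small subunit. The rule does not ask how a gene changed. However, 1 of the 44, *rpl36a*, is named only in tables of genes and proteins that the study called on these samples. The members *rpl10*, *rpl4*, *rps27l* and *rps29* are named in such tables and in another table as well. RNA was sequenced from pools of 5 whole larvae of the AB line, in 3 pools of *mia40a* waw1/waw1 larvae (Mut) and 3 of their wild-type siblings (WT), taken at 5 days post fertilization (dpf), and in as many pools at 8 dpf. The waw1 allele was made with TALENs and the larvae came from crosses of heterozygous parents. Larvae of all pools were genotyped at 3 dpf, an age at which the study describes genotyping by fin-fold amputation. The allele is carried by every cell of a Mut larva and affects Mia40a, which draws newly made proteins into the intermembrane space of mitochondria. The 8 dpf larvae had been fed from 5 dpf on, so age and feeding cannot be told apart. The study names starvation as a possible bias in Mut larvae of 8 dpf and centred its own reading on 5 dpf. The part of starvation in the differences between the genotypes at 8 dpf was not tested here.

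A ribosome is built from a small subunit, which reads the message, and a large subunit, which joins amino acids into a chain. Each subunit is a core of ribosomal RNA covered by many proteins, most of which are present once, so their genes are expressed together and at high levels in every growing tissue. In vertebrates the messages of these proteins begin with a stretch of pyrimidines that places their translation under the control of the growth kinase mTORC1, through the RNA-binding protein Larp1. Their translation, rather than their amount, therefore carries much of the fast response to nutrients and stress, and RNA-Seq measures only the amount.

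All 44 genes were in the 5 dpf data and had a mean of at least 5, the limit for a test. At 8 dpf 43 were present, and *rps27l* was not analysed at that age. The values are the normalized values that the authors deposited: read counts corrected for library size and rounded, with a batch effect also removed at 8 dpf. The sum of all normalized values was 16997847 to 18177809 per library at 5 dpf and 22595423 to 25417541 at 8 dpf. As both ages were normalized separately, levels were compared only between libraries of an age, and not between genes, because no transcript lengths were at hand. *mia40a* itself was read at 82, 91 and 92 in WT and at 264, 262 and 261 in Mut pools of 5 dpf. At 8 dpf it was read at 394 to 488 in WT and 383 to 443 in Mut, which overlap. Its message was thus higher in every Mut pool than in every WT pool of 5 dpf and did not separate the genotypes at 8 dpf. Nothing in the labels says whether the pools of a group came from different clutches, so the p values measure the spread between these pools.

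Some members have a different ribosomal protein name in the gene name table used here, such as RPS4Y2 for *rps4x* and RPL36AL for *rpl36a*. A single identifier is named there as a gene outside the ribosomal proteins. ENSDARG00000076360, called *rpl37* in a supplementary table, is COA1 in the gene name table used here, and COA1 is an assembly factor of cytochrome c oxidase in mitochondria. Its values were 138 to 188 at 5 dpf and 267 to 388 at 8 dpf. The other members ran from 560 to 53715 and from 6130 to 81752, which is not a comparison per length. The identifier is kept because the rule holds it, and is written *rpl37* (COA1). Counts that change without it are given with and without it. The gene name table gives the name *rpl37* to another identifier, ENSDARG00000034291, which the rule does not hold. That identifier read 9942 to 11602 at 5 dpf and 21487 to 28074 at 8 dpf. Its log2 fold changes of Mut over WT were 0.09 and 0.12, and it was called at neither age.

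At 5 dpf the ribosomal protein genes were slightly higher in Mut almost without exception, but only *rps27l* passed the test. Of the 44 genes, 43 had a positive log2 fold change of Mut over WT, where 49.8% of all 22521 genes tested did. Their median log2 fold change was 0.14 and the median of all genes was 0.00. With limma and a Benjamini-Hochberg adjusted p under 0.05, 1 of the 44 was called higher and 0 were called lower, against 3.82% of all genes called higher and 2.17% called lower. The share called among the members was thus near that of all genes. At an unadjusted p under 0.05, 8 of the 44 were higher and 0 were lower, where 11.3% of all genes were higher and 8.73% were lower. In 11 of the 44, or 25%, every Mut library lay above every WT library, compared with 12.9% of all genes, and in 0 did every Mut library lie below, compared with 11.7%.

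*rps27l*, a paralogue of the small subunit gene *rps27* that is known in mammals as a target of p53, stood apart from the rest. Its identifier, ENSDARG00000100513, carries both *rps27.2* and RPS27L as symbols in the supplementary tables. It is written *rps27l*, the name in the gene name table, and *rps27.2* is kept for ENSDARG00000055475. The normalized values of *rps27l* were 641, 560 and 599 in WT and 1004, 1189 and 974 in Mut. The lowest Mut library was far above the highest WT library. The log2 fold change was 0.81 with a standard error of 0.09, a rise of 1.75-fold with a 95% interval of 1.52 to 2.02, and the adjusted p was 0.000899 (limma). The change did not reach the log2 limit of 0.9 that the study applied to its own calls. With that limit 0 of the 44 genes were called in this fit, where 0.608% of all genes were called higher and 0.546% lower. *rps27l* is also named in the tables of genes and proteins that the study called on these samples, whose values were not read here. Its partner in the list, *rps27.2*, read 7526, 6484 and 6427 in WT and 6628, 8129 and 7831 in Mut, and these groups overlapped. The log2 fold change of *rps27.2* was 0.14 with a standard error of 0.10 and an adjusted p of 0.45 (limma).

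**Figure D1:**
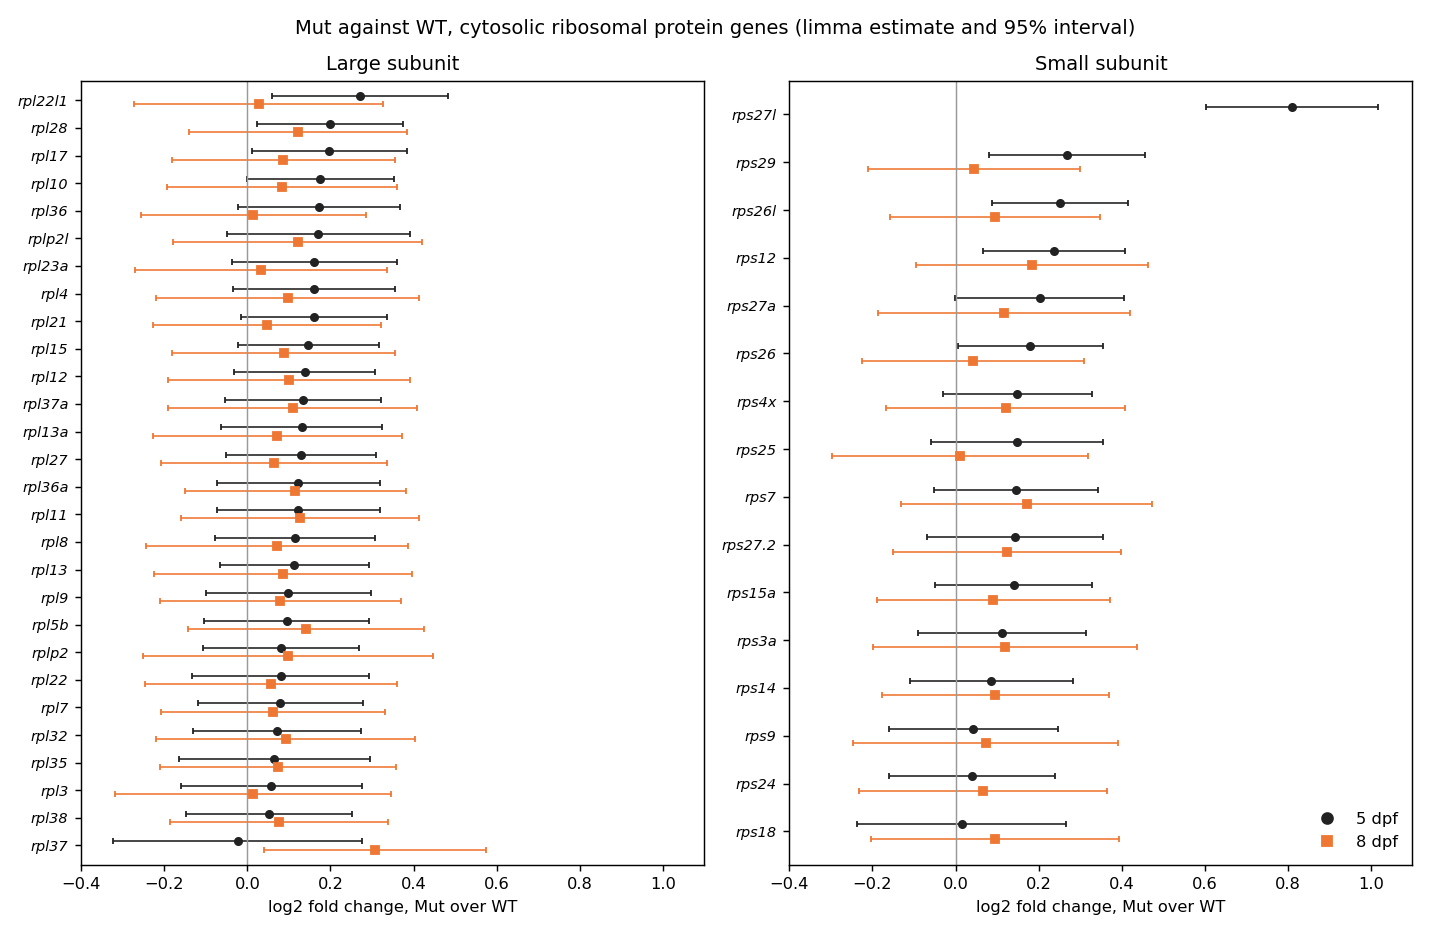
Log2 fold change of Mut over WT for each ribosomal protein gene (x axis) at 5 dpf (black circles) and 8 dpf (orange squares), with 95% intervals from limma, large subunit left and small subunit right. Nearly all estimates lie between 0 and 0.3, most intervals include 0, and *rps27l* at 0.81 is the only called gene.

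Among the proteins of the small subunit, all 16 estimates were positive at 5 dpf, from 0.01 to 0.81, with a median of 0.15. After *rps27l*, the highest was *rps29*, a zinc-binding protein in the head of the subunit. Its values were 8149, 7852 and 7412 in WT and 8578, 10409 and 9267 in Mut, which do not overlap. The log2 fold change was 0.27 with a standard error of 0.08 and the adjusted p was 0.0995 (limma), so the gene was not called.

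*rps26l* and *rps26*, a pair of genes for a protein at the exit of the message channel, both had higher means in Mut. *rps26l* had 8225, 8909 and 8503 in WT and 9495, 10386 and 10645 in Mut, without overlap. *rps26* had 6351, 5736 and 5610 in WT and 6168, 6977 and 6908 in Mut, with the lowest Mut library below the highest WT library. Their log2 fold changes were 0.25 with a standard error of 0.07 and 0.18 with a standard error of 0.08, with adjusted p values of 0.0779 and 0.233 (limma). The value of 0.0779 was the lowest adjusted p of any member that was not called.

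*rps12* and *rps4x* were the other small subunit genes without overlap between the groups. Every Mut library lay above every WT library in 5 of the 16, or 31.2%, compared with 12.9% of all genes. *rps12* read 17230, 17295 and 16717 in WT and 18707, 20783 and 20969 in Mut, with a log2 fold change of 0.24. *rps27a*, whose message encodes a ribosomal protein fused to ubiquitin, read 20634, 18618 and 18376 in WT and 19846, 23705 and 22868 in Mut, with a log2 fold change of 0.20. The libraries of *rps27a* overlapped through WT1 and Mut1.

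At the low end of the small subunit were *rps18*, *rps24* and *rps9*. *rps18*, a protein of the head of the subunit, read 15667, 11946 and 12201 in WT and 11984, 14267 and 13776 in Mut, so that its groups covered nearly the same range. Its log2 fold change was 0.01 with a 95% interval of -0.24 to 0.27, and the sign turned when libraries were scaled to the same total. *rps24* read 18006, 15803 and 15596 in WT and 15433, 18054 and 17304 in Mut, with a log2 fold change of 0.04.

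Among the proteins of the large subunit, 27 of 28 estimates were positive at 5 dpf, from -0.02 to 0.27, with a median of 0.13. Without *rpl37* (COA1), which had the only negative estimate, all 27 were positive. None of the 28 was called, where 3.82% of all genes were called higher and 2.17% lower. At an unadjusted p under 0.05, 3 were higher and 0 lower (limma), where 11.3% and 8.73% of all genes were. The highest was *rpl22l1*, a paralogue of *rpl22* with a part in blood cell formation in zebrafish. Its values were 3019, 2570 and 2580 in WT and 2894, 3563 and 3408 in Mut, with Mut1 below WT1. The log2 fold change was 0.27 with a standard error of 0.10 and an adjusted p of 0.138 (limma).

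In 6 large subunit genes, *rpl28*, *rpl17*, *rpl10*, *rpl4*, *rpl15* and *rpl12*, every Mut library lay above every WT library. This was 21.4% of the 28, compared with 12.9% of all genes. *rpl28* read 10067, 9277 and 9310 in WT and 10115, 11789 and 11050 in Mut, so that the groups were separated by the small gap between WT1 and Mut1. *rpl10*, which joins the subunit late and readies it for pairing with the small subunit, read 22163, 21300 and 21139 in WT and 22748, 25613 and 24690 in Mut. *rpl12*, a protein at the base of the stalk that receives elongation factors, read 23304, 23379 and 22797 in WT and 24668, 25030 and 26801 in Mut.

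The low end of the large subunit held *rpl38*, *rpl3* and *rpl35*, beside *rpl37* (COA1). *rpl3*, which lies near the site where peptide bonds are made, read 51818, 47949 and 47133 in WT and 45971, 53715 and 53445 in Mut, with a log2 fold change of 0.06 with a standard error of 0.10. *rpl38*, which in the mouse is needed for the translation of Hox messages, read 6536, 5591 and 5570 in WT and 5512, 6472 and 6369 in Mut, with a log2 fold change of 0.05. For both genes the lowest of the 6 libraries was Mut1.

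Over the 43 members that were not called at 5 dpf, the 95% intervals reached no lower than 0.799-fold and no higher than 1.397-fold of WT. The estimates of the large subunit genes had a lower and an upper quartile of 0.08 and 0.16 around their median of 0.13, and those of the small subunit genes of 0.10 and 0.21 around 0.15. The difference between the subunits was not tested, because genes of a subunit are not replicates.

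The wider set of ribosomal protein genes gave the same picture at 5 dpf. By the gene name table, 82 genes in the data carry a ribosomal protein symbol, 42 of them members of the list above. All 82 had a positive log2 fold change, and 1 of them, *rps27l*, was called. The medians were 0.13 for 46 large subunit genes and 0.14 for 36 small subunit genes.

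The members moved together from library to library, and this movement was as large as the difference between the genotypes. For each gene the log2 of the value plus 1 was set against its mean over the 6 libraries of its age, and the median over the 43 genes other than *rpl37* (COA1) was taken. At 5 dpf this median deviation was 0.02, -0.12 and -0.11 in WT1, WT2 and WT3 and -0.06, 0.15 and 0.11 in Mut1, Mut2 and Mut3. WT1 was thus above Mut1, while the other WT libraries were below every Mut library. WT1 was the highest WT library in 40 of the 43 genes, and Mut2 or Mut3 was the highest Mut library in all 43. The median deviation of all genes tested was 0.00 in each library, as the normalization aligns the libraries on the bulk of the genes.

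**Figure D2:**
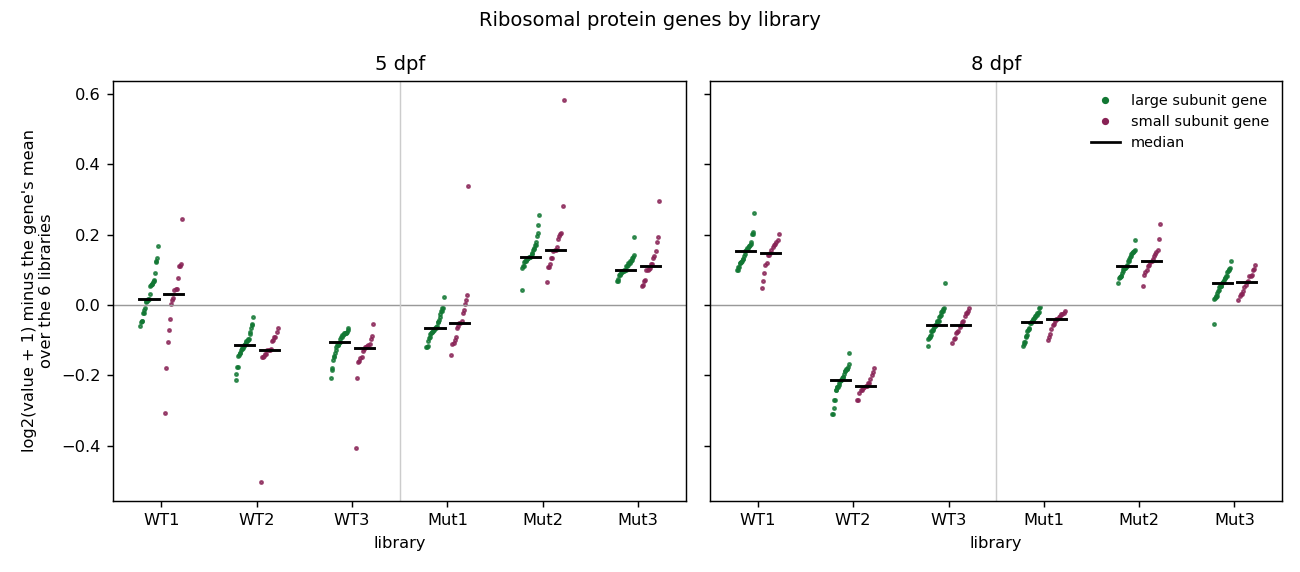
Deviation of each ribosomal protein gene from its own mean over the 6 libraries of an age, on the log2(value + 1) scale (y axis), by library (x axis), with large subunit genes in green, small subunit genes in purple and medians as black bars. *rpl37* (COA1) is left out. Within a library the genes of both subunits lie together, and libraries of the same genotype lie apart from each other, most of all WT1 and WT2 at 8 dpf, with medians of 0.15 and -0.22.

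Across the 6 libraries of 5 dpf, Pearson's r of the log2 values was over 0.5 in 871 of the 903 pairs of these genes, with a median of 0.91. With each group's mean taken out, the median was 0.93. At 8 dpf the median was 0.96 over 861 pairs and the lowest was 0.66. These values are descriptions of 6 libraries that all genes share, in which depth, normalization and genotype act on every gene at once, and they carry no test.

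The shared movement sets how much the count of positive signs at 5 dpf can be read. As the genes rise and fall together, the 43 positive signs do not count as 43 separate observations, and the medians rest on 3 pools against 3. Leaving out a library in turn gave medians from 0.08 to 0.19 for the large subunit and from 0.09 to 0.22 for the small subunit, always above 0. The count of genes called was 1 in each of these fits, and the adjusted p of *rps27l* ran from 0.0020 to 0.0056 (limma). Without Mut1, 26 of the 44 genes had an unadjusted p under 0.05, and without Mut2 or without Mut3, 3 did. The fits differed for all genes too: 1016, 481 and 533 were called without Mut1, Mut2 and Mut3, in place of 1350. The share of all genes at an unadjusted p under 0.05 was not counted in these fits.

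The sums of the values followed the same pattern at 5 dpf. Large subunit genes held 2.80%, 2.66% and 2.66% of the summed values in WT and 2.78%, 2.98% and 2.94% in Mut. Small subunit genes held 1.43%, 1.33% and 1.33% in WT and 1.41%, 1.52% and 1.49% in Mut. In both subunits WT1 lay above Mut1, so the groups overlapped. The means were 2.71% ± 0.0808 against 2.90% ± 0.106 for the large subunit and 1.36% ± 0.0577 against 1.47% ± 0.0569 for the small subunit (SD, n = 3).

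**Figure D3:**
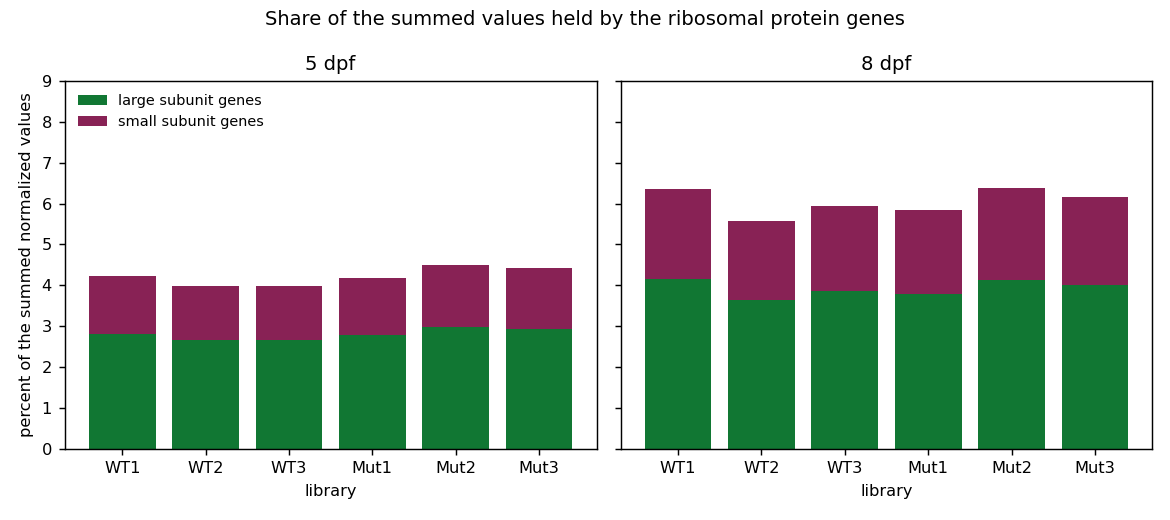
Percent of the summed normalized values (y axis) held by large subunit genes (green) and small subunit genes (purple, stacked above) in each library (x axis) at 5 dpf and 8 dpf. At 5 dpf the stacks reach 3.98% to 4.50%, and at 8 dpf 5.58% to 6.38%, with WT1 close to Mut2 at 8 dpf.

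Markers of other tissues were read in the same pools. The 15 exocrine pancreas markers, which are digestive enzymes, summed to 135001 to 187943 in WT and 68855 to 85607 in Mut at 5 dpf, and 14 of the 15 were called lower, against 2.17% of all genes. Of these markers 8, as well as 3 of the 4 liver markers and 2 of the 8 skeletal muscle markers, are named only in the tables of genes and proteins that the study called on these samples, so their direction is not independent evidence. The 4 liver markers summed to 67588 to 92413 in WT and 49985 to 64519 in Mut, and 2 of the 4 were called lower, against 2.17% of all genes. The 8 skeletal muscle markers summed to 264494 to 324778 in WT and 293716 to 380719 in Mut, which overlap. Of these 8, 0 were called, where 3.82% of all genes were called higher and 2.17% lower. All 8 estimates were positive, with a median of 0.25, and 5 had an unadjusted p under 0.05 (limma). Of all genes, 11.3% were higher and 8.73% lower at that limit. The 5 gut markers, of which *fabp6* is named only in the tables of called genes and proteins, had 0 positive estimates. Their median was -0.32 and 0 were called. None of the markers was at 0. In pools of whole larvae, fewer cells of a type and less RNA per cell cannot be told apart. Without the pancreas markers and the genes of the mitochondrial genome in the total, the large subunit share was 2.87% in WT and 3.07% in Mut and the small subunit share 1.44% and 1.56%, so that the order of the genotypes was the same.

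The proportion of large to small subunit messages hardly moved. The summed values of large subunit genes were 1.966, 1.997 and 2.004 times those of small subunit genes in WT and 1.972, 1.963 and 1.976 times in Mut pools of 5 dpf, and the groups overlapped. At 8 dpf the ratio was 1.882, 1.892 and 1.870 in WT and 1.856, 1.838 and 1.863 in Mut, so that every Mut library lay below every WT library. The means were 1.88 ± 0.011 and 1.85 ± 0.0129 (SD, n = 3). In the wider set of genes the ratio at 8 dpf was 1.507, 1.513 and 1.503 in WT and 1.504, 1.495 and 1.507 in Mut, which overlap, so the separation depended on the genes in the list.

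At 8 dpf no ribosomal protein gene was called. With limma at an adjusted p under 0.05, 0 of 43 were higher or lower, where 1.34% of all 20963 genes were called higher and 3.32% lower, and 1 of the 43 was higher at an unadjusted p under 0.05 and 0 were lower, where 8.77% and 12% of all genes were. With the log2 limit of 0.9 the count stayed at 0, against 0.205% and 0.701% of all genes. All 43 estimates were positive, from 0.01 to 0.31, where 52% of all genes were positive. The median was 0.08 for the large subunit and 0.10 for the small subunit, and 0.01 for all genes. Every Mut library lay above every WT library in 1 of the 43, or 2.33%, against 15.3% of all genes, and in 0 did every Mut library lie below, against 17.3%.

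That gene, and the only member with an unadjusted p under 0.05, was *rpl37* (COA1). It read 319, 282 and 267 in WT and 362, 325 and 388 in Mut, with a log2 fold change of 0.31 with a standard error of 0.12 and an adjusted p of 0.182 (limma). Without this identifier 0 of the remaining members had groups that did not overlap.

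After it, the highest at 8 dpf were *rps12* and *rps7*. *rps12* read 33274, 27440 and 30189 in WT and 31037, 37745 and 34526 in Mut, with a log2 fold change of 0.18 with a standard error of 0.12. *rps7*, which in mammals also binds the p53 regulator MDM2, read 47780, 37239 and 42489 in WT and 44311, 51128 and 47623 in Mut, with an estimate of 0.17 with a standard error of 0.13. In both genes WT1 was above Mut1 and the adjusted p values were 0.43 and 0.502 (limma).

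*rpl5b* and *rpl11*, which form a particle with an RNA of the large subunit, followed at 0.14 and 0.13. *rpl5b* read 40515, 31993 and 35434 in WT and 36796, 41716 and 40118 in Mut. *rpl11* read 35882, 27806 and 31251 in WT and 31951, 36518 and 34794 in Mut. In each, WT1 and Mut2 were close and WT2 was the lowest library.

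At the other end were *rps25*, *rpl3* and *rpl36*, each with a log2 fold change of 0.01. *rps25* read 44124, 33112 and 38136 in WT and 35792, 41084 and 38735 in Mut. *rpl3* read 81752, 63931 and 72170 in WT and 68366, 77332 and 73405 in Mut. *rpl36* read 24512, 19103 and 21382 in WT and 20059, 23309 and 22053 in Mut. In all of them the WT libraries spanned the Mut libraries on both sides, and the signs turned negative when libraries were scaled to the same total.

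The positive signs at 8 dpf rested on the library WT2. The median deviation of the members there was -0.22, against 0.15 in WT1 and -0.06 in WT3, and against -0.05, 0.12 and 0.06 in Mut1, Mut2 and Mut3. Without WT2, 18 of 43 estimates were positive and the median log2 fold change was -0.02 for the large subunit and -0.01 for the small subunit. Without Mut2, 36 were positive. Without WT1, the highest library, all 43 were positive and the medians were 0.19 and 0.21. In that fit 9 of the 43 had an unadjusted p under 0.05, a limit at which the share of all genes was not counted. Of the 43, 0 were called, where 834 of all genes were called in place of 977. Between WT and Mut of the larger batch alone (WT1, WT2, Mut1 and Mut2), 41 of the 43 estimates were positive and 0 were called. That fit called 141 of all 20963 genes, so a count of 0 says little about the members. The share of all genes with a positive estimate was not counted in the fits of this paragraph. The smaller batch held a single library of each genotype, so it gave no test.

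For single genes at 8 dpf the 95% intervals reached from 0.801-fold to 1.49-fold of WT. The large subunit held 4.15%, 3.65% and 3.86% of the summed values in WT and 3.80%, 4.13% and 4.01% in Mut, and the small subunit 2.21%, 1.93% and 2.07% in WT and 2.05%, 2.25% and 2.15% in Mut. The ranges of the genotypes overlapped almost fully. The exocrine pancreas markers summed to 22061 to 68877 in WT and 10490 to 30817 in Mut, which overlap. Of the 15, 0 were called, where 1.34% of all genes were called higher and 3.32% lower. However, 0 of the 15 estimates were positive, with a median of -1.14, and 8 had an unadjusted p under 0.05 (limma). Of all genes, 8.77% were higher and 12% lower at that limit. The limit stated at 5 dpf for the naming of these markers applies here too. The liver markers summed to 38108 to 68436 in WT and 24439 to 32355 in Mut, and 1 of 4 was called lower, against 3.32% of all genes. The lens markers summed to 32492 to 60880 in WT and 9771 to 20488 in Mut. Of the 5 lens markers 4 were called lower, against 3.32% of all genes. The skeletal muscle markers summed to 607180 to 878976 in WT and 856884 to 944911 in Mut, which overlap. The muscle sum was carried mostly by *actc1b*, with 384059 to 560153 in WT and 540585 to 608521 in Mut, and 3 of the 8 muscle markers had negative estimates: *tnnt3a* at -0.15, *tnni2a.2* at -0.26 and *tnni2a.1* at -0.97, which was called lower (adjusted p = 0.024, limma). Of the 5 lens markers 2, *crybb1* and *cryba1b*, are named only in the tables of genes and proteins that the study called on these samples. Their direction is therefore not independent evidence. The part of these tissues in the values of the ribosomal protein genes was not tested.

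The effect of the genotype on the members did not differ detectably between the ages. Of 43 genes tested at both ages, 0 had an adjusted p under 0.05 and 0 an unadjusted p under 0.05 for the difference of the log2 fold changes, where 8.09% of the 20598 genes tested passed the first limit and 21.8% the second. The difference, 8 dpf minus 5 dpf, was negative in 30 and positive in 13, and ran from -0.24 in *rpl22l1* to 0.33 in *rpl37* (COA1). The lowest adjusted p was 0.295, for *rpl37* (COA1). For *rps27l*, the only called gene, no comparison between the ages could be made.

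The paralogue pairs allowed a comparison within each library, which cancels the movement that all members shared. The question was whether the proportion of the copies differed between the genotypes, not which copy was more abundant. In total 7 such ratios were tested with an exact two-sided permutation test over libraries, which with 3 against 3 cannot give a p below 0.1. At 5 dpf the value of *rps27l* over that of *rps27.2* was 0.0852, 0.0864 and 0.0932 in WT and 0.151, 0.146 and 0.124 in Mut. The mean ratio was 59.4% higher in Mut, with an exact p of 0.1, adjusted to 0.35 over the 7 ratios, and all 3 Mut libraries lay above all 3 WT libraries. The value of *rpl22l1* over that of *rpl22* was 0.384, 0.405 and 0.380 in WT and 0.434, 0.455 and 0.445 in Mut, a mean 14.1% higher in Mut, with the same exact p and adjusted p. Here, too, every Mut library was above every WT library, although neither gene was called and *rpl22* alone read 7866, 6343 and 6786 in WT and 6670, 7823 and 7662 in Mut.

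For the same pair the ratio at 8 dpf was 0.419, 0.406 and 0.442 in WT and 0.441, 0.405 and 0.395 in Mut, and the groups overlapped (exact p = 0.5). The ratio of *rplp2l* to *rplp2*, genes of the acidic stalk that recruits elongation factors, overlapped between the groups at both ages, with exact p values of 0.3 and 0.8. That of *rps26l* to *rps26* overlapped as well, with exact p values of 0.7 and 0.2. Reads that fit several genes were not counted by the authors, so the values of near-identical copies are less certain than those of other members.

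**Figure D4:**
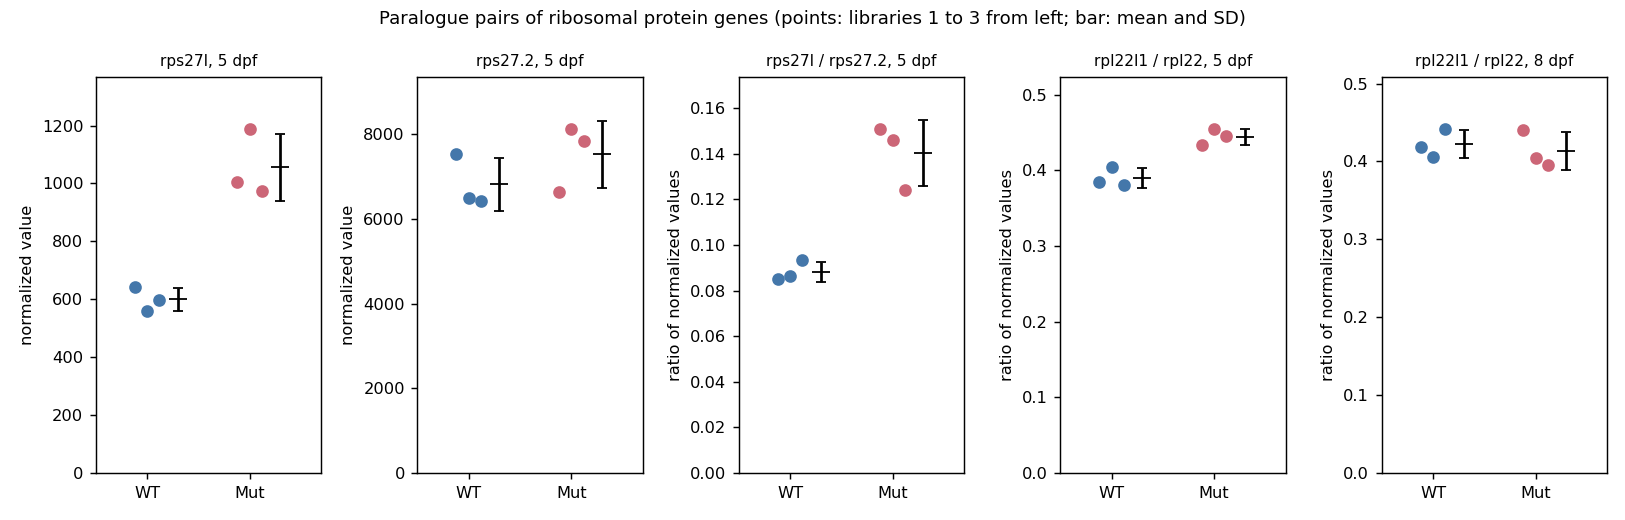
Normalized values of *rps27l* and *rps27.2* at 5 dpf and ratios of the values of paralogues (y axes, starting at 0) in each WT library (blue) and Mut library (red), with mean and SD beside them. Mut points lie above WT points for *rps27l* and for both ratios at 5 dpf, with no overlap, while *rps27.2* at 5 dpf and the ratio of *rpl22l1* to *rpl22* at 8 dpf overlap.

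Each member was also divided by the geometric mean of the ribosomal protein genes of its library, itself included, taken over the 43 or 42 genes without *rpl37* (COA1). On this relative scale 4 of 44 genes at 5 dpf had every Mut library above every WT library, or 9.09%, compared with 5.45% of all genes, and 11 had every Mut library below, or 25%, compared with 23.7%. The 4 were *rps27l*, *rpl22l1*, *rps27a* and *rpl28*. Those below included *rps18*, *rps24*, *rps9*, *rpl38* and *rpl3*, with mean changes of -9.21%, -7.39%, -7.17%, -6.56% and -6.23%. At 8 dpf 6 of 43 lay above, or 14%, compared with 6.52% of all genes, and 6 below, or 14%, compared with 15.9%. At both ages *rps27a* was in the first group and *rpl3* in the second. This scale centres the members and lowers the change of Mut over WT in the other genes with them. The shares of all genes are thus shifted by the scale itself and are no reference rate for the members.

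The relative value of *rpl3* was 3.58, 3.67 and 3.60 in WT and 3.34, 3.37 and 3.47 in Mut pools of 5 dpf, and 2.31, 2.34 and 2.34 in WT and 2.22, 2.23 and 2.20 in Mut pools of 8 dpf. Its mean changed by -6.23% and -4.88%, and the gene was singled out here after its values were seen. In a similar scaling every library was set to the same mean log2 value over all members, *rpl37* (COA1) included. With it, limma called 1 member at 5 dpf, *rps27l* at a log2 fold change of 0.66 and an adjusted p of 0.0046, and 0 at 8 dpf. This scaling lowers the median of all genes by 0.15 at 5 dpf and by 0.08 at 8 dpf, as it sets the ribosomal protein genes to 0.

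*rpl13a*, a large subunit gene, was the gene against which the study scaled *mia40a* and *mia40b* in RT-qPCR. The study reports no comparison of the genotypes by that RT-qPCR, so the levels of *rpl13a* in both genotypes are given only as a description. It read 23140, 21392 and 20487 in WT and 21751, 24871 and 24615 in Mut pools of 5 dpf. At 8 dpf it read 47235, 36443 and 40526 in WT and 40307, 45516 and 44192 in Mut. The libraries overlapped at both ages. The log2 fold changes were 0.13 with a standard error of 0.09 and 0.07 with a standard error of 0.13, with adjusted p values of 0.447 and 0.794 (limma) and 95% intervals of -0.06 to 0.33 and -0.23 to 0.37. The primers that the study lists for this gene are shown because they mark the message used as that reference. They are given 5′ to 3′ in lower case, and their place in the genome was not determined here.
zrpl13a_F: tctggaggactgtaagaggtatgc
zrpl13a_R: agacgcacaatcttgagagcag

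The genes around the ribosome were read for comparison, in lists put together with earlier results of these data known. Each of the 7 calls named at 8 dpf in these lists was lost in a fit without Mut1 and in a fit without Mut2, in which 33 and 44 of all genes were called in place of 977. At 5 dpf, 5 of the 13 called genes named outside the ribosomal proteins lost their call without Mut2, 4 without Mut3 and 2 without WT2. The 8 ribosome-bound partners, among them *rpsa* and *gnb2l1* of the small subunit and the signal recognition particle, were all positive at 5 dpf with a median of 0.20, and 1, *srp72*, was called higher, against 3.82% of all genes. *srp72*, a part of the signal recognition particle, read 1108, 1048 and 1046 in WT and 1336, 1349 and 1409 in Mut, with a log2 fold change of 0.35 with an adjusted p of 0.0125 (limma). At 8 dpf 0 of the 8 were called, 0 had an unadjusted p under 0.05 and 4 were positive. Of all genes, 1.34% were called higher and 3.32% lower. At the unadjusted limit 8.77% of all genes were higher and 12% lower.

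Genes of ribosome biogenesis, which make and process ribosomal RNA and put the subunits together, were called in 1 direction at 5 dpf. Of 46 genes, 8 were called higher and 0 lower, where 3.82% of all genes were called higher and 2.17% lower, with a median log2 fold change of 0.25 beside 0.00 for all genes. *gar1*, of the particles that modify ribosomal RNA, read 575, 522 and 544 in WT and 764, 863 and 799 in Mut, with a log2 fold change of 0.56 (adjusted p = 0.0029, limma). *heatr3*, which in other species escorts Rpl5, read 322, 250 and 253 in WT and 376, 410 and 408 in Mut, with an estimate of 0.54. *bop1*, needed for large subunit maturation, read 405, 431 and 380 in WT and 576, 612 and 542 in Mut, with an estimate of 0.51. At 8 dpf 2 of the 46 were called, both higher, where 1.34% of all genes were called higher and 3.32% lower, and the median was 0.09 beside 0.01 for all genes. They were *utp3*, of the small subunit processome, at 540, 478 and 531 in WT and 945, 792 and 834 in Mut, and *gnl2*, a nucleolar GTPase, at 885, 905 and 838 in WT and 1091, 1058 and 1157 in Mut.

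**Figure D5:**
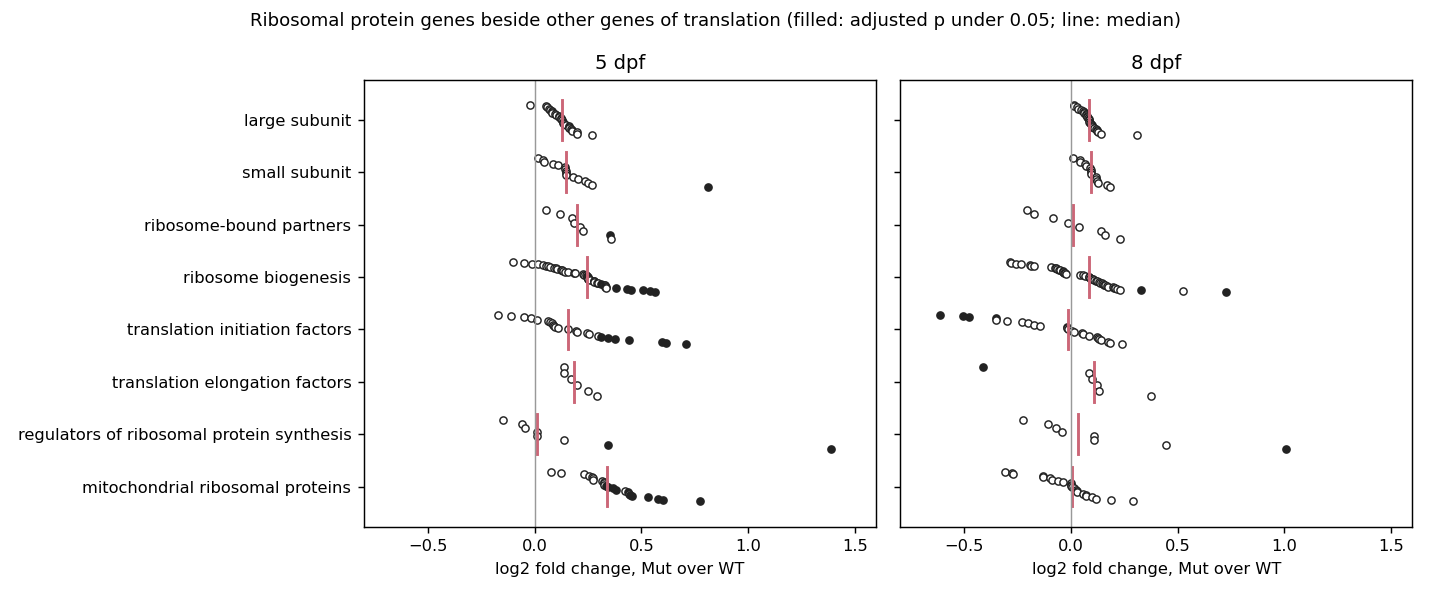
Log2 fold change of Mut over WT (x axis) of single genes in 8 lists of translation genes (y axis) at 5 dpf and 8 dpf, filled where the adjusted p was under 0.05 (limma), with the median of each list as a red line. At 5 dpf the medians lie between 0.01 and 0.34, and at 8 dpf between -0.02 and 0.11, with called initiation factors left of 0.

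The initiation factors called at 5 dpf were all higher in Mut, and those called at 8 dpf all lower. Of 25 initiation factors, 7 were called higher and 0 lower at 5 dpf, and 0 higher and 4 lower at 8 dpf. Calls among all genes also leaned to higher at 5 dpf, with 861 higher (3.82%) and 489 lower (2.17%), and to lower at 8 dpf, with 281 higher (1.34%) and 696 lower (3.32%). The medians of the 25 were 0.16 and -0.02. *eif4eb*, which binds the cap of the message, read 136, 151 and 150 in WT and 239, 249 and 228 in Mut pools of 5 dpf, a log2 fold change of 0.71. *eif2b1*, a subunit of the exchange factor that reloads eIF2, read 432, 410 and 421 in WT and 631, 684 and 622 in Mut, with an estimate of 0.61. *eif4e1c*, a relative of the cap-binding protein, read 412, 434 and 520 in WT and 657, 722 and 679 in Mut pools of 5 dpf. At 8 dpf it read 1303, 1260 and 1186 in WT and 817, 770 and 864 in Mut. The log2 fold changes were 0.60 and -0.61. It was called at both ages, and in each no library of Mut overlapped WT.

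The other called initiation factors of the largest change at 8 dpf were the scaffold genes *eif4g3b* and *eif4g2a*. *eif4g3b* read 1127, 1155 and 1050 in WT and 745, 771 and 829 in Mut, with a log2 fold change of -0.51. *eif4g2a* read 2644, 2717 and 2455 in WT and 1775, 1850 and 1994 in Mut, with an estimate of -0.48. Of 6 elongation factors, 0 were called at 5 dpf, where all were positive, and 1 had an unadjusted p under 0.05 (limma). Of all genes, 11.3% were higher and 8.73% lower at that unadjusted limit. At 8 dpf *eef2a.1* was called lower, as 3.32% of all genes were, with 934, 891 and 871 in WT and 714, 615 and 700 in Mut, a log2 fold change of -0.41.

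Of 8 regulators of ribosomal protein synthesis, 2 were called at 5 dpf and 1 at 8 dpf, all higher in Mut, where 3.82% and 1.34% of all genes were called higher. The medians were 0.01 and 0.03. *sesn2*, an inhibitor of mTORC1 that is switched on when amino acids are short, read 84, 94 and 81 in WT and 208, 245 and 231 in Mut pools of 5 dpf, a log2 fold change of 1.39 (adjusted p = 0.00017, limma). This gene is named only in the tables of genes that the study called on these samples, so its direction is not independent evidence. *eif4ebp1*, whose product holds back the cap-binding protein until mTORC1 releases it, read 1411, 1262 and 1343 in WT and 1681, 1710 and 1698 in Mut, with an estimate of 0.34 (adjusted p = 0.016, limma). *eif4ebp3l*, of the same family, read 1792, 1397 and 1743 in WT and 1265, 1526 and 1653 in Mut pools of 5 dpf, which overlap, and 1031, 740 and 1008 in WT and 2117, 1756 and 1684 in Mut pools of 8 dpf, at a log2 fold change of 1.01 (adjusted p = 0.015, limma). *larp1* was not called at either age, with log2 fold changes of 0.14 and -0.22.

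Genes for proteins of the mitochondrial ribosome were read as well. Of 24 genes, 11 were called higher at 5 dpf and 0 lower, where 3.82% and 2.17% of all genes were, all 24 were positive and the median was 0.34. Of the 24, 3 genes, *mrpl38* among them, are named only in the tables of genes and proteins that the study called on these samples, so their direction is not independent evidence. The largest changes were those of *mrpl38* (473, 519 and 482 in WT; 827, 889 and 805 in Mut), *mrpl12* and *mrpl9*, at log2 fold changes of 0.77, 0.60 and 0.58. At 8 dpf 0 of the 24 were called, against 1.34% higher and 3.32% lower among all genes, and the median was 0.00. At an unadjusted p under 0.05 (limma) were 4 genes, *mrps35* and *mrpl2* higher and *mrpl57* and *mrpl21* lower. Of all genes, 8.77% were higher and 12% lower at that limit. The difference between cytosolic and mitochondrial ribosomal protein genes was not tested as such, because the genes of a list are not replicates.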

How the data were processed

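The libraries were of stranded mRNA, read as pairs. According to the labels and methods, the authors trimmed the reads with Trimmomatic 0.33, aligned them with STAR 2.4.0a to GRCz10 and counted them per gene with featureCounts 1.4.5-p1, leaving out reads with several matches. The deposited values are normalized scores: counts over a size factor, rounded by the authors, and at 8 dpf freed of a batch effect with edgeR 3.16.5 and kept for genes with a mean of at least 5. As these are not counts, limma 3.58.1 in R 4.3.3 was fitted per age to log2(value + 1), with genotype, and at 8 dpf also with batch (WT3 and Mut3 against the other 4), for all genes with a mean of at least 5. The batches were read from the supplementary tables and checked on the values. Tests were two-sided, eBayes used a trend, and Benjamini-Hochberg adjustment ran over all genes. Fold changes on this scale understate those of low genes. Effects at both ages were compared by the difference of the log2 fold changes with Satterthwaite degrees of freedom. The fits were run on simulated data with known changes and independent noise for each gene. The simulation held neither movement shared between genes nor a removed batch effect, so it does not cover these features of the members.

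The members and lists were chosen with earlier results of these data known. Genes named were those called, the 3 highest and 3 lowest members per age, the paralogue pairs, *rpl13a*, *mia40a* and up to 3 called genes with the largest change per list. Others were chosen after their values were seen. A comparison of levels per coding length was planned and not made, as no lengths were at hand. All list symbols matched, and 0 columns of values were left unused. The alternatives were other pseudocounts, filters, thresholds and scalings, eBayes without trend, a replicate block, leaving out libraries and, at 8 dpf, no batch term or the larger batch alone. Scaling to the members, the wider list, the omission of COA1 and the ratios were added after the data were seen. Figures were drawn with Python 3.11.15 and matplotlib 3.10.9.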

Additional observations from a re-analysis of the deposited data

Results flagged for a closer look

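No ribosomal protein gene met a criterion for a closer look: groups of 3 pools were too small for a search for outlying libraries, and the effect of the genotype differed between the ages in 0 of the 43 genes tested at both ages. Among the 18 other translation genes named in the report, 14 differed between the ages, where 8.09% of the 20598 genes tested at both ages did. The test was that of the difference of the log2 fold changes (8 dpf minus 5 dpf, adjusted p under 0.05 over all genes tested at both ages). The 18 genes had been named because they were among the largest called changes at an age, which by itself favours a smaller change at the other age. The share of all genes is therefore no reference rate for these 18. The 14 genes are given below. Among the initiation factors the differences were -1.21 for *eif4e1c*, -1.01 for *eif4eb*, -0.81 for *eif4g3b*, -0.63 for *eif4g2a* and -0.48 for *eif2b1*. *eif4e1c* had 412 to 520 in WT and 657 to 722 in Mut at 5 dpf, and 1186 to 1303 in WT and 770 to 864 in Mut at 8 dpf, an opposite order of the genotypes (adjusted p of the difference 1.3e-05, from the limma fits). The difference was -0.58 for the elongation factor *eef2a.1*, -0.37 for *srp72* and -0.75 for the RNA modification gene *gar1*. It was -0.77, -0.70 and -0.62 for *mrpl38*, *mrpl12* and *mrpl9* of the mitochondrial ribosome. Among regulators it was -0.94 for *sesn2* and 1.16 for *eif4ebp3l*, the latter with overlapping groups at 5 dpf and no overlap at 8 dpf. *utp3* of the small subunit processome, with a difference of 0.59, and *eif4ebp3l* were the only genes of the 14 with the more positive effect at 8 dpf.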

How the results depend on the processing

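The count of ribosomal protein genes called was 1 at 5 dpf and 0 at 8 dpf under every alternative run, except that it was 0 at 5 dpf with the log2 limit of 0.9. Some fits at 8 dpf called few genes of any kind, so their count of 0 says little about the members. Of all 20963 genes, 0 were called with eBayes without trend, 33 without Mut1 and 44 without Mut2. In the larger batch alone 141 were called, in place of 977. The count of genes whose effect differed between the ages stayed at 0. With every library scaled to the mean of the members, the medians at 5 dpf were -0.020 for the large subunit and -9.9e-05 for the small subunit, by construction. This scaling also turned *rps18* (-0.13), *rps24* (-0.11), *rpl22* (-0.066), *rplp2* (-0.065), *rps27.2* (-0.0038) and *rpl13a* (-0.015) at 5 dpf and *rps25* (-0.080), *rpl3* (-0.077), *rpl36* (-0.077), *rpl22* (-0.034), *rpl22l1* (-0.064), *rps26* (-0.049) and *rpl13a* (-0.019) at 8 dpf below 0, and moved the calls of all genes at 5 dpf from 861 higher and 489 lower to 260 higher and 808 lower. Scaled to the same total, *rps18* came to -0.0072 at 5 dpf, and *rps25* to -0.034, *rpl3* to -0.031, *rpl36* to -0.030, *rpl22l1* to -0.017 and *rps26* to -0.0023 at 8 dpf. Scaled to the total of the other genes, these were -0.0026 for *rps18*, -0.031 for *rps25*, -0.028 for *rpl3*, -0.0275 for *rpl36* and -0.015 for *rpl22l1*. In the larger batch alone *rpl36* was at -0.0011. None of these genes was called under any alternative.

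Without mitochondrially encoded and pancreas genes in the total, the large subunit share was 2.87% in WT and 3.07% in Mut at 5 dpf and 4.08% and 4.20% at 8 dpf, and the small subunit share 1.44% and 1.56%, and 2.17% and 2.27%. Leaving out each library in turn gave medians of 0.08 to 0.19 (large) and 0.09 to 0.22 (small) at 5 dpf, and of -0.021 to 0.19 and -0.0086 to 0.21 at 8 dpf. At 5 dpf the ranges were -0.12 to 0.10 for *rpl37* (COA1), -0.055 to 0.14 for *rps18* and -0.0081 to 0.11 for *rps24*. At 8 dpf they were -0.11 to 0.13 for *rps25*, -0.086 to 0.12 for *rpl3*, -0.084 to 0.12 for *rpl36*, -0.079 to 0.19 for *rpl22*, -0.14 to 0.15 for *rpl22l1*, -0.039 to 0.28 for *rplp2*, -0.019 to 0.24 for *rplp2l*, -0.072 to 0.16 for *rps26* and -0.027 to 0.19 for *rpl13a*, and the lower end came without WT2 in each.

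Of the called genes named outside the ribosomal proteins, *mia40a* included, 7 of 7 at 8 dpf lost their call without Mut1, without Mut2 or with eBayes without trend, and 4 of 7 in the larger batch alone. At 5 dpf at most 6 of 13 lost it, and none changed sign. With eBayes without trend, 0 of all genes were called at 8 dpf in place of 977, and 344 at 5 dpf in place of 1350. Every call at 8 dpf thus depended on the trend. In a fit with a replicate block, the counts of ribosomal protein genes called were 1 at 5 dpf and 0 at 8 dpf, and the calls among all genes fell from 1350 to 616 and from 977 to 504. At 5 dpf pools of the same number did not deviate together, with a mean correlation of -0.18 over genes. At 8 dpf this check cannot be read, because WT3 and Mut3 share a batch whose removal makes their deviations opposite (correlation -0.999), and that batch is a term of the fit. A fit without the filter on low values was not run at 8 dpf, where the data held only genes with a mean of at least 5. The total of the normalized values is not the depth of a library, so no counting interval is given.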
